A study of Homo sapiens with 8 samples.

Results

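Cisplatin can enter and leave cells on membrane proteins, many of which also carry copper or drug conjugates. The expression of 10 genes of these routes was followed in H460-derived cancer stem cells (H460C) and in cisplatin-resistant H460 cells (H460R), each read against the parental H460 line, a human large cell lung carcinoma line. The genes were 3 grouped as uptake (SLC31A1, SLC31A2 and LRRC8A) and the copper chaperone ATOX1. A further 6 were grouped as efflux (ATP7A, ATP7B, ABCC1, ABCC2, ABCC3 and ABCG2). Platinum transport was not measured for these 10 genes. They were chosen by name, and a probe was assigned to a gene when its transcript accession belonged to that gene. This gave 14 of the 41000 probes of the whole human genome arrays, for 9 of the 10 genes. No probe matched ATP7A, which was therefore not analysed here.

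H460R cells had survived 72 h in cisplatin at 0.5 µg/mL and were then kept without drug. They grew, as did H460 cells, in RPMI with fetal bovine serum. H460C cells were obtained from H460 cells, without cisplatin in the labelled protocol, by growth unattached in defined DMEM/F12 medium with BSA, N2 supplement, EGF and FGF-b, so that stem cell selection and culture medium cannot be told apart in any H460C value. All 3 populations derive from the same line. Each of the 8 dual-color arrays set H460C or H460R against H460. The 2 RNA samples of a population were each run on a pair of dye-swapped arrays. A single H460 RNA (Sample1 in the labels) served all of them, so both ratios share it and the spread of H460 was not measured. Each population lay on its own slide, and slide and population cannot be told apart.

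SLC31A1 (CTR1) is the high-affinity copper importer through which part of the platinum drug is thought to enter, and SLC31A2 (CTR2) is its relative on internal membranes. The place of SLC31A2 among the uptake genes is a grouping only and does not mean that it brings platinum in. LRRC8A is the obligatory subunit of the volume-regulated anion channels, which also let cisplatin pass. Inside the cell, ATOX1 hands copper to the P-type ATPases ATP7A and ATP7B, which pump it into the secretory route or out of the cell and can bind platinum. ABCC1, ABCC2 and ABCC3 (MRP1, MRP2 and MRP3) export glutathione and glucuronide conjugates, and ABCG2 (BCRP) is a broad drug pump used as a marker of side population cells.

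All values are log2 ratios from the authors' processed table, H460C or H460R over H460, in which 0 means equal signal and 1 a doubling. Where a gene had several probes, the brightest was read as the gene and the rest are given beside it. All 14 probes were well above background in all 16 array channels and none was saturated. Between 22834 and 28499 probes per channel were well above background. The epithelial keratins KRT8, KRT18 and KRT19 were above background in all channels and the leukocyte marker PTPRC in none, while EPCAM was so in 7 of 8 channels of the studied cells and CDH1 in 4. Markers of other cell types were not all dark: CD3E and LUM were above background in 8 of 8 channels of the studied cells, and their part in the results was not tested. The 2 H460C ratios differed by no more than the hybridization noise (r = 0.02 between the replicate differences seen in the 2 dye orientations, across 26046 probes, which are not independent), so H460C was counted as 1 sample in its mean, which is given without an SD. The tests enter its 2 ratios unless 1 sample is stated. H460R means are given with the SD of its 2 samples, although the same correlation was also low there (r = 0.21).

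Against H460, none of the 9 genes passed the Rank Products test in either population at a false discovery rate under 0.05. The background of that test was 0.561% of 20337 gene names called higher and 0.565% called lower in H460C, and 0.487% and 0.482% in H460R. Without adjustment, 2 of the 9 genes had a p under 0.05 in H460C (ABCC3 and LRRC8A) and 1 in H460R (ATOX1). The share of all gene names with such a p was not counted, so these counts have no background beside them. In H460C, 4.11% of gene names had a larger size than ABCC3 and 17.6% than LRRC8A. In H460R, 13.8% had a larger size than ATOX1. The limma test on the same ratios called 9 genes in H460C (4 higher, 5 lower) and 6 in H460R (5 higher, 1 lower), but it also called 36.1% of all gene names higher and 41.1% lower in H460C, and 36.7% and 41.2% in H460R. The direct comparison of H460C with H460R by limma called 8 of the 9 genes, 2 higher in H460C and 6 higher in H460R, where 33.8% of all gene names were higher in H460C and 32.1% lower. With H460C entered as 1 sample, where the spread comes from the 2 H460R samples alone and H460C is assumed to vary like them, limma also called these 8, and it called 20.3% of all gene names higher and 20.8% lower. Standard errors of the 9 genes then rose from between 0.044 and 0.053 to between 0.067 and 0.080, and adjusted p of the 8 genes ran from 0.0053 (ABCC3) to 0.030 (SLC31A1). The standard errors, intervals and adjusted p printed for single genes below enter both H460C ratios and are therefore narrower than 1 sample would allow. On the log2 scale, the median size over the 9 genes was 0.43 in H460C, 0.225 in H460R and 0.615 between them, beside 0.275, 0.26 and 0.26 over all gene names. The limma p-values measure only the spread between these ratios, drawn toward that of all probes. In H460C this spread was no more than hybridization noise. The Rank Products p-values rest on the ranks of the 2 ratios and measure no spread.

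**Figure D1:**
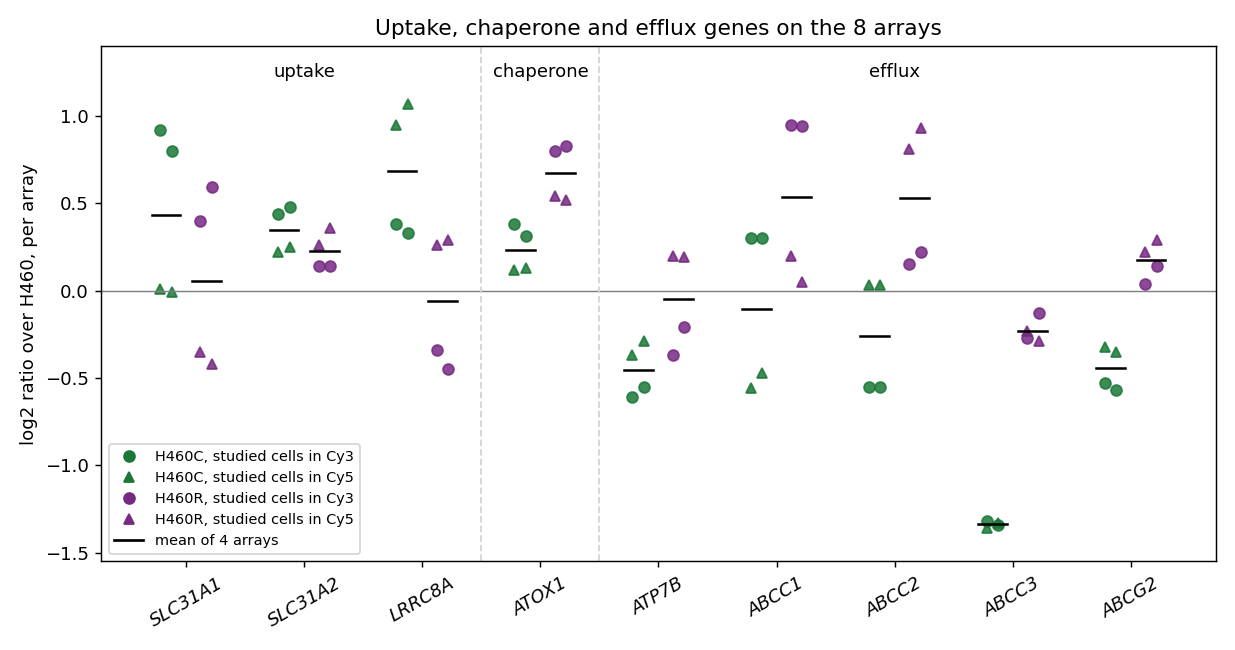
Log2 ratio over H460 (vertical axis) of the 9 genes on each of the 8 arrays, with H460C in green and H460R in purple, circles for studied cells labelled with Cy3, triangles for Cy5, and black lines for the mean of 4 arrays. ABCC3 in H460C is the lowest point set, with a mean of -1.34, and the uptake genes LRRC8A and SLC31A1 have H460C means of 0.68 and 0.43.

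Uptake genes had positive mean ratios in H460C, 3 of 3, as did 9374 of 20337 gene names. That of SLC31A1 came from its Cy3 arrays, with 0.86 there and 0 in Cy5. In H460R the means of LRRC8A and SLC31A1 lay close to H460, with opposite signs in the 2 dye orientations, while SLC31A2 was above 0 on all 4 arrays. The channel subunit LRRC8A was read at 0.38 and 0.33 on the H460C arrays with the studied cells in Cy3, and at 0.95 and 1.07 on those in Cy5. In H460R the same probe gave -0.34 and -0.45 in Cy3 and 0.26 and 0.29 in Cy5. All 4 H460C arrays were above all 4 H460R arrays, as were those of 19.2% of gene names, while the H460R arrays lay on both sides of 0. The means were 0.68 in H460C (1.60-fold over H460) and -0.06 ± 0.03 in H460R (SD, n = 2). LRRC8A was 1.67-fold higher in H460C than in H460R (log2 difference 0.74, SE 0.05, 95% interval 0.63 to 0.86, limma adjusted p = 5.6e-05). A second LRRC8A probe did not share this difference, with means of 0.13 and 0.00 ± 0.19 and an interval of -0.10 to 0.35 (adjusted p = 0.26). Its arrays ran from -0.33 to 0.55 in H460C and from -0.51 to 0.44 in H460R, and 1 of its H460C spots was marked as an outlier by the scanner software. The LRRC8A result thus rests on 1 of 2 probes for the same transcript accession.

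The copper importer SLC31A1 gave 0.92 and 0.80 on the H460C arrays in Cy3 and 0.01 and -0.01 in Cy5. In H460R it gave 0.40 and 0.59 in Cy3 and -0.35 and -0.42 in Cy5. The orientations thus stood apart in both populations, and the arrays of H460C and H460R overlapped unless compared within an orientation. The means were 0.43 in H460C and 0.06 ± 0.04 in H460R, a difference of 0.37 (SE 0.05, 95% interval 0.25 to 0.50, adjusted p = 0.0012). The H460C mean came from the Cy3 arrays alone, so it gives no firm direction against H460. The other 3 SLC31A1 probes were also higher in H460C than in H460R, by 0.24, 0.24 and 0.55, each with an adjusted p under the threshold of 0.05. They disagreed on the level against H460. One had means of -0.12 in H460C and -0.37 in H460R, and the others had 0.28 and 0.47 in H460C and 0.04 and -0.08 in H460R.

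SLC31A2, the only uptake gene that was not called, gave 0.44 and 0.48 in Cy3 and 0.22 and 0.25 in Cy5 in H460C. In H460R it gave 0.14 and 0.14 in Cy3 and 0.26 and 0.36 in Cy5. All 8 arrays were above 0, with means of 0.35 in H460C and 0.23 ± 0.04 in H460R. The difference of 0.12 had a 95% interval of 0.01 to 0.24 and an adjusted p of 0.061, and it was positive in Cy3 (0.32) and negative in Cy5 (-0.08).

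The chaperone ATOX1 had the opposite order to the uptake genes. In H460C it gave 0.38 and 0.31 in Cy3 and 0.12 and 0.13 in Cy5, and in H460R 0.80 and 0.83 in Cy3 and 0.54 and 0.52 in Cy5. Every array of both populations was above 0, and every H460R array was above every H460C array. The means were 0.24 in H460C and 0.67 ± 0.004 in H460R (1.59-fold over H460), the highest H460R mean among the 9 genes. ATOX1 was 1.35-fold higher in H460R than in H460C (log2 difference -0.44, SE 0.04, adjusted p = 0.00035), and 31.3% of gene names had a larger difference.

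Efflux genes were higher in H460R than in H460C, 5 of 5, where 47.7% of all gene names had a lower mean in H460C and 32.1% were called lower. Their mean ratios in H460C were below 0, as were those of 53.9% of all gene names, and those of ABCC1 and ABCC2 changed sign with the dye. In H460R, 2 of the 5 (ATP7B and ABCC3) had a mean below 0, where 53% of all gene names did. The organic anion pump ABCC3 gave the lowest values. It was read at -1.32, -1.36, -1.34 and -1.33 on the H460C arrays and at -0.27, -0.23, -0.13 and -0.29 on those of H460R. Dye orientation made almost no difference for this probe, and all arrays of both populations were below 0. The mean of -1.34 in H460C was a 2.53-fold lower signal than in H460, and 4.11% of gene names had a larger size. Its Rank Products false discovery rate was 0.15, above the threshold. In H460R the mean was -0.23 ± 0.03, and ABCC3 was 2.15-fold higher there than in H460C (log2 difference -1.11, SE 0.04, 95% interval -1.22 to -0.997, adjusted p = 1.3e-05).

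ABCC2, the canalicular conjugate pump, was read by both of its probes with the same order. The brightest gave -0.55 and -0.55 in Cy3 and 0.03 and 0.03 in Cy5 in H460C, and 0.15 and 0.22 in Cy3 and 0.81 and 0.93 in Cy5 in H460R. The other gave -0.33, -0.31, -0.30 and -0.38 in H460C and 0.62, 0.52, 0.58 and 0.52 in H460R, with little gap between the dyes. Both probes separated the populations without overlap. The means of the brightest were -0.26 in H460C and 0.53 ± 0.07 in H460R, and ABCC2 was 1.73-fold higher in H460R than in H460C (log2 difference -0.79, SE 0.05, adjusted p = 6.8e-05). By the other probe the difference was -0.89 (SE 0.04).

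ABCC1, the general glutathione conjugate pump, gave 0.30 and 0.30 in Cy3 and -0.56 and -0.47 in Cy5 in H460C. In H460R it gave 0.95 and 0.94 in Cy3 and 0.20 and 0.05 in Cy5. All H460R arrays were above 0, whereas the sign in H460C followed the dye, so that its mean of -0.11 gives no direction against H460. The H460R mean was 0.54 ± 0.06 (1.45-fold over H460), and ABCC1 was 1.56-fold higher in H460R than in H460C (log2 difference -0.64, SE 0.05, adjusted p = 0.00014). Its only probe carries the accession of a single ABCC1 transcript variant, NM_019862, and other variants were not read separately.

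ABCG2 gave -0.53 and -0.57 in Cy3 and -0.32 and -0.35 in Cy5 in H460C, all below H460. In H460R it gave 0.04 and 0.14 in Cy3 and 0.22 and 0.29 in Cy5, all above H460. The populations did not overlap, and the means were -0.44 and 0.17 ± 0.06. ABCG2 was 1.53-fold higher in H460R than in H460C (log2 difference -0.61, SE 0.05, adjusted p = 0.00016). The scanner software marked its spot as an outlier on 1 array of each population, and leaving out the marked spots changed neither the direction nor the call.

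The copper ATPase ATP7B gave -0.61 and -0.55 in Cy3 and -0.37 and -0.29 in Cy5 in H460C. In H460R it gave -0.37 and -0.21 in Cy3 and 0.20 and 0.19 in Cy5. The populations thus overlapped, the lowest H460R array being level with an H460C array and below another. The means were -0.46 in H460C and -0.05 ± 0.05 in H460R, and the H460R mean changed sign under other processing. ATP7B was 1.33-fold higher in H460R than in H460C (log2 difference -0.41, SE 0.05, adjusted p = 0.00097).

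**Figure D2:**
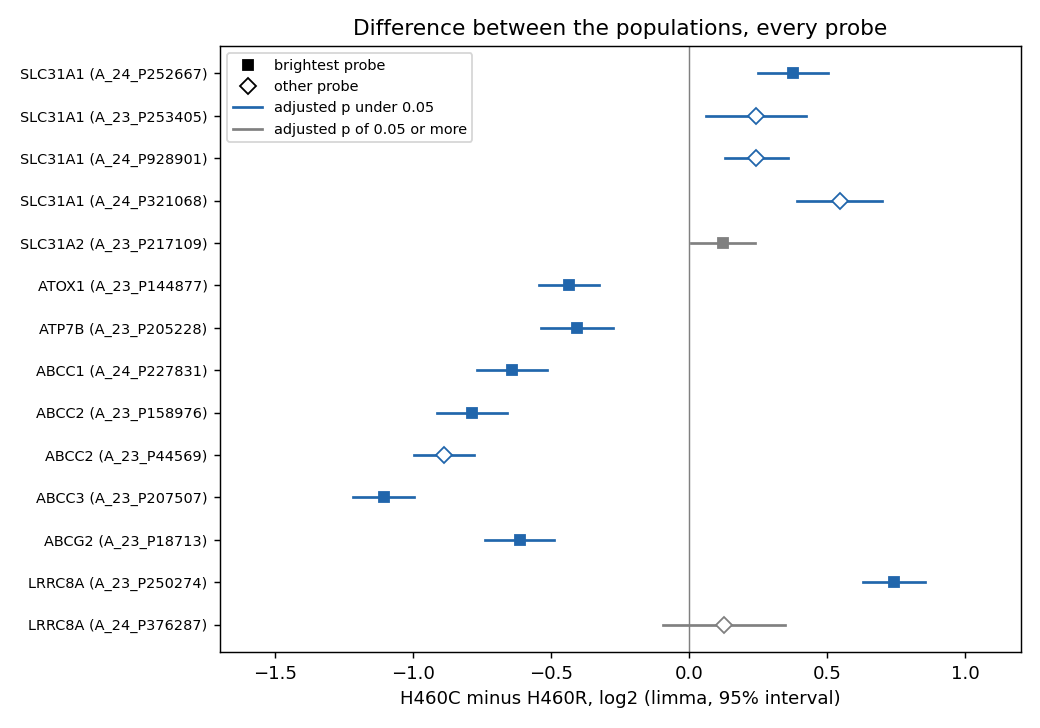
Difference H460C minus H460R (horizontal axis, log2) with its 95% limma interval for each of the 14 probes, filled squares for the brightest probe of a gene and open diamonds for its other probes, blue where the adjusted p was under 0.05. ABCC3 at -1.11 and LRRC8A at 0.74 are the ends of the range, and the second LRRC8A probe and SLC31A2 are the grey entries.

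Counted over the 9 genes, 4 (ATOX1, ABCC2, ABCC3 and ABCG2) had all H460C arrays below all H460R arrays, against 19.3% of gene names, and LRRC8A had them above. All 4 arrays were above 0 for 3 genes in H460C and for 5 in H460R, where 31.4% and 28.5% of gene names had this. All 4 were below 0 for 3 genes in H460C and for 1 in H460R, against 34.1% and 30% of gene names. In H460C the order of the means, from the highest, was LRRC8A, SLC31A1, SLC31A2, ATOX1, ABCC1, ABCC2, ABCG2, ATP7B and ABCC3. In H460R it was ATOX1, ABCC1, ABCC2, SLC31A2, ABCG2, SLC31A1, ATP7B, LRRC8A and ABCC3. In the H460R order ABCC1 and ABCC2, and ATP7B and LRRC8A, stood closer than the SD of either gene, and SLC31A2 and ABCG2 closer than the SD of ABCG2. Neighbours in H460C could not be read this way, since it counts as 1 sample.

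Uptake was then set against efflux within each RNA sample, as the mean log2 ratio of the 5 efflux genes minus that of the 3 uptake genes. It was -1.02 and -0.999 in the 2 H460C samples and 0.11 and 0.13 in the 2 H460R samples, with means of -1.01 and 0.12 ± 0.01. In H460C the efflux genes averaged -0.52 and the uptake genes 0.49, while in H460R they averaged 0.19 and 0.07. On single arrays the value ran from -1.12 to -0.91 in H460C and from 0.03 to 0.18 in H460R, so the orientations did not mix the populations. Median differences between H460C and H460R were 0.37 for the uptake genes and -0.64 for the efflux genes, beside 0.02 over all gene names. The genes were picked with earlier results known, and no test was made of the score. It depends on single genes: without ABCC3 it was -0.80 in H460C and 0.22 in H460R, and without LRRC8A it was -0.91 and 0.05, alternatives chosen after seeing the data. LRRC8D, a partner of LRRC8A described below, was not among the uptake genes. Its means were -1.08 in H460C and -0.35 in H460R, and the score with it was not computed.

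**Figure D3:**
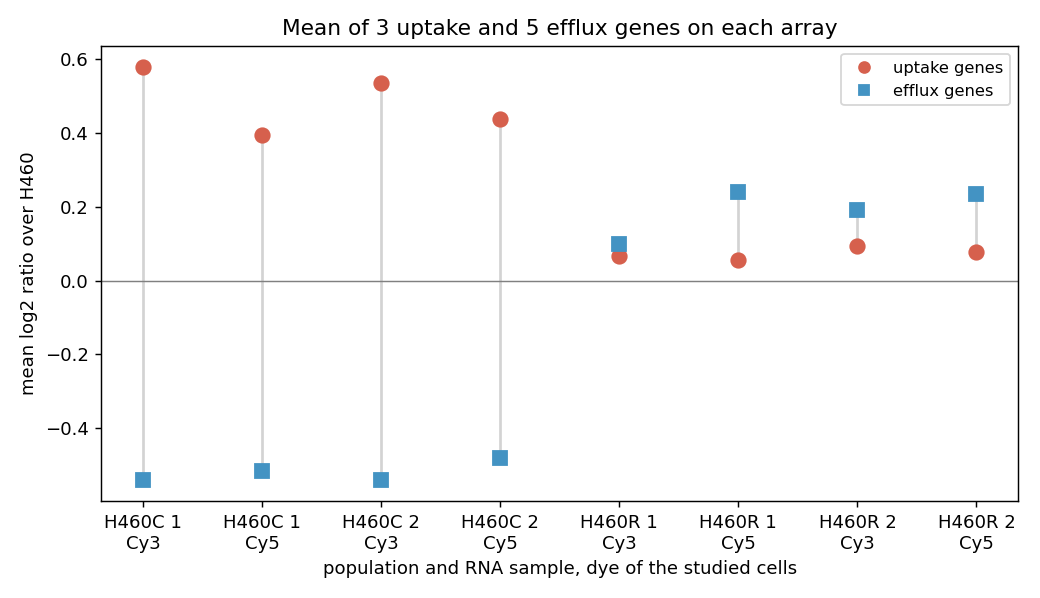
Mean log2 ratio over H460 (vertical axis) of the 3 uptake genes (red circles) and the 5 efflux genes (blue squares) on each array, named by population, RNA sample and dye of the studied cells. The efflux genes lie below the uptake genes on all 4 H460C arrays and above them, by 0.03 to 0.18, on all 4 H460R arrays.

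Several members moved with the dye, and for most of them the gap was alike in both populations. The Cy5 minus Cy3 gap of SLC31A2, however, was -0.225 in H460C and 0.17 in H460R. That of ATP7B was 0.25 in H460C and 0.485 in H460R. Across 26046 probes the gap between orientations had a correlation of 0.90 between H460C and H460R, as a description, since these probes share arrays and dyes. Within orientations, the difference between H460C and H460R had the same sign for 8 of 9 genes, SLC31A2 being the exception. It was 0.37 in Cy3 and 0.39 in Cy5 for SLC31A1, and 0.75 and 0.74 for LRRC8A. For the efflux pumps it was -0.65 and -0.64 for ABCC1, -0.74 and -0.84 for ABCC2, -1.13 and -1.09 for ABCC3, and -0.64 and -0.59 for ABCG2. The median gap between the 2 orientations was 0.05 over the 9 genes and 0.11 over all probes kept, and the largest, 0.395, was that of SLC31A2. ATP7B had the next widest gap, with -0.29 in Cy3 and -0.53 in Cy5.

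**Figure D4:**
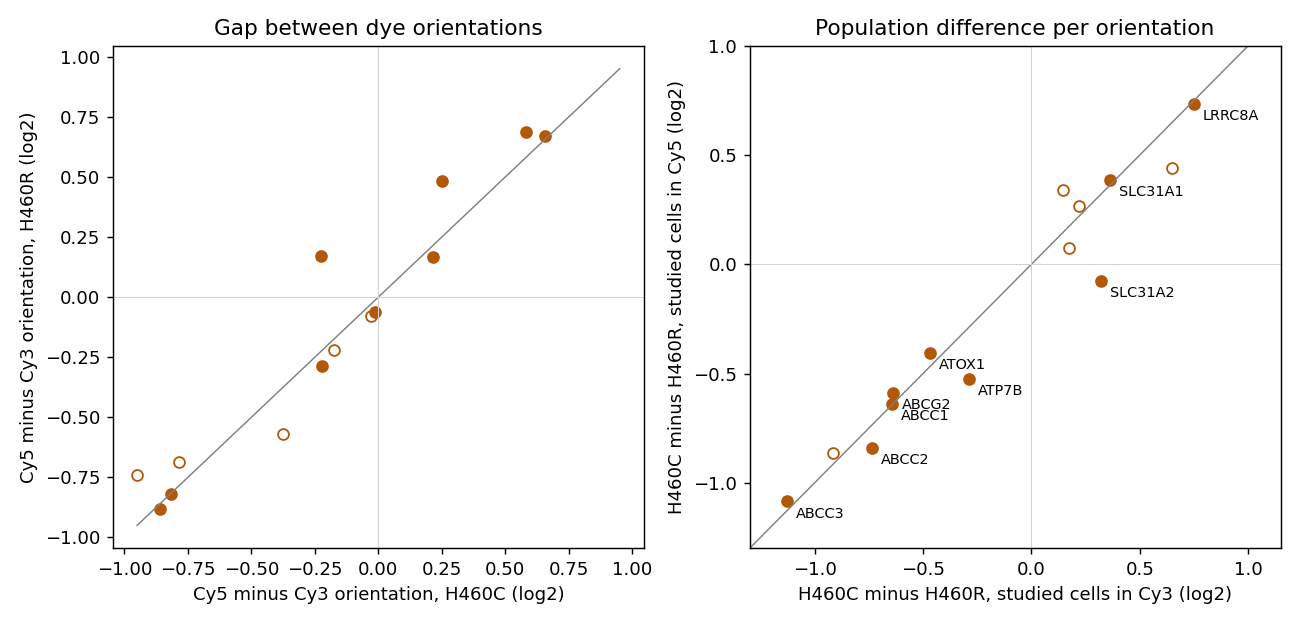
Left, the log2 ratio with the studied cells in Cy5 minus that in Cy3 for each of the 14 probes, in H460C (horizontal) and H460R (vertical). Right, the difference H460C minus H460R (log2) within each orientation, filled points for the probe read as the gene, open points for other probes, and the grey line for equality. SLC31A2 is the only labelled gene with opposite signs (0.32 and -0.08).

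Other genes of platinum and copper handling were counted over lists covering 34 genes, all on the array, of which 27 passed the filter on dim probes. Rank Products called none of them in either population. Without adjustment, 4 had a p under 0.05 in H460C and 3 in H460R, and the share over all gene names was not counted. By limma, 11 were called higher and 9 lower in H460C (36.1% and 41.1% over all gene names). In H460R limma called 13 higher and 10 lower (36.7% and 41.2%). Between the populations, limma called 12 higher and 9 lower in H460C, where 33.8% and 32.1% of all gene names were called. All these counts are out of 27 genes, and they were not tested against the shares of all gene names. By list, the calls between the populations were 6 and 3 of 12 copper genes and 1 and 3 of 4 organic cation carriers. They were 2 and 1 of 5 further ABC pumps, 2 and 2 of 4 further LRRC8 subunits, and 1 and 0 of 2 vesicle genes. CP, which encodes the plasma ferroxidase ceruloplasmin, was the only listed gene with a higher value in H460C by at least 1. Its arrays ran from 1.30 to 1.79 in H460C and from -0.74 to -0.27 in H460R, a 4.42-fold difference (log2 2.14, SE 0.12, adjusted p = 3.8e-05). The carnitine and organic cation carrier SLC22A4 was the only one lower by at least 1, with arrays from -0.34 to -0.28 in H460C and from 0.53 to 0.97 in H460R (log2 difference -1.12, SE 0.10, adjusted p = 0.00023). LRRC8D, the LRRC8A partner that is tied to platinum entry, was looked at after its values were seen. It gave -1.45, -0.14, -1.46 and -1.26 in H460C and -0.24, -0.40, -0.23 and -0.53 in H460R. Unlike LRRC8A it was lower in H460C than in H460R (log2 difference -0.73, SE 0.17, adjusted p = 0.012), with 1 H460C array far from the other 3.

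Sequence upstream of the start site was examined for 3 short motifs, since copper carriers and conjugate pumps are studied as metal- and stress-responsive genes. The copper genes themselves did not share a direction, SLC31A1 being higher and ATOX1 and ATP7B lower in H460C than in H460R. RefSeq entries (GRCh38.p14) were matched for 7 of the 10 genes, 14 entries in all, and the 250 bases before each start were read on both strands. SLC31A2, ABCC1 and ABCC3 had no entry, and ATP7A, which had no probe, is among the 7. Some entries of ATP7B and of ABCG2 overlap, so motif matches that they share count more than once. The metal response element core (TGCACNC or TGCGCNC) was present in 5 of these 14 entries (35.7%), for 4 of the 7 genes, and in 24.8% of all 35116 entries. A GC box (GGGCGG) was present in 7 of the 14 entries (50%), for 5 of the 7 genes, and in 42.6% of all entries. The antioxidant response element core (TGACNNNGC) was present in none of the 14 entries and in 10.9% of all. Shown here are the uptake gene SLC31A1 (chr9:113221294-113221543, plus strand), higher in H460C, and ATOX1 (chr5:151758632-151758881, minus strand) and ABCC2 (chr10:99782390-99782639, plus strand), higher in H460R. Capitals mark motif matches, 5′ to 3′ on the gene's strand, which in ATOX1 includes metal response cores of both strands that overlap.
SLC31A1: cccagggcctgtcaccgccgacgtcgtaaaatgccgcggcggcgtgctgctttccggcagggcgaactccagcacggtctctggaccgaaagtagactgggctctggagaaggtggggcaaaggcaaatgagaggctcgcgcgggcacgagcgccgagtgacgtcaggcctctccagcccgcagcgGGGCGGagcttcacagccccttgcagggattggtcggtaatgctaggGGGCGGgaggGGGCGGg
ATOX1: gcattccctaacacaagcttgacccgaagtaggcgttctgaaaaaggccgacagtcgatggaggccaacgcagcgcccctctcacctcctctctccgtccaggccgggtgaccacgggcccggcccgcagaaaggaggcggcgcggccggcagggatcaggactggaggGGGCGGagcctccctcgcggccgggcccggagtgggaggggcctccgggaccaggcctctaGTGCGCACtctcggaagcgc
ABCC2: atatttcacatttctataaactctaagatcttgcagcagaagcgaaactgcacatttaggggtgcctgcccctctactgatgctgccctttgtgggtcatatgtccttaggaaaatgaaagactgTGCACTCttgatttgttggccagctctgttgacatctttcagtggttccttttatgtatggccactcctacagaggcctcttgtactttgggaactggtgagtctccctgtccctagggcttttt
SLC31A1 has 3 GC boxes and no metal response core in this window, ATOX1 has both motifs, and ABCC2 has a metal response core and no GC box. ATP7B and ABCG2, also higher in H460R, each had entries with and entries without a metal response core. LRRC8A, higher in H460C, had no entry with one. A link between motif and direction was not tested. These matches describe the letters only, and binding was not measured.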

How the data were processed

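RNA of H460C and H460R cells (2 samples each) was hybridized against H460 RNA on 8 dual-color arrays with the dyes swapped. Per the labels and methods, scanner images were extracted by the authors with Feature Extraction 10.1.1.1. The authors' processed table, deposited as log2 ratios of studied cells over H460 and already turned on dye-swapped arrays, gave the main values. Its background correction and normalization are not given in the sources used here. The deposited spot and background intensities (not normalized) and the deposited log10 ratio of Cy5 over Cy3 served as alternatives. The correlation of the table with log ratios remade from the intensities ran from 0.950 to 0.997 over the arrays, which settled its direction and scale, and its medians per array lay between -0.02 and 0. The decimal points of 1 array's log10 ratios had been lost, and its values were divided by 10 to the power of 9. No column was without a sample.

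Control spots were dropped, spots of a probe and then both arrays of an RNA sample were averaged, and probes were kept if well above background (a share of at least 0.5 of their spots) on every array of H460C, of H460R or of H460, which left 26046 probes and 20337 gene names. Of 25868 probes with RefSeq accessions, 23958 matched the RefSeq gene table. Spots marked as outliers were kept. Each population was tested against H460 by the exact Rank Products test on 2 ratios, following the study, with Benjamini-Hochberg adjustment over both directions. H460C was compared with H460R by limma 3.58.1 in R 4.3.3 on 4 ratios, two-sided. Scripts were tested on simulated data. All members were named, and of the further lists the genes called with a size of at least 1. The members, lists and tests were chosen with earlier results of these data known. The number of arrays limits the precision. Same-numbered samples did not deviate together (r = 0.04), so the numbers were not taken as pairs. Alternatives covered the source of the ratios, background, centring, dim-probe filter, orientation, outlier spots, probes, test, replicate block and each sample left out.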

Additional observations from a re-analysis of the deposited data

Results flagged for a closer look

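For 8 of the 9 genes the 2 populations differed from each other by a direct test (limma, adjusted p under 0.05). On the log2 scale, H460C minus H460R was 0.37 for SLC31A1 and 0.74 for LRRC8A, both higher in H460C. It was -0.44 for ATOX1, -0.41 for ATP7B, -0.64 for ABCC1, -0.79 for ABCC2, -1.11 for ABCC3 and -0.61 for ABCG2, all higher in H460R. Because 33.8% and 32.1% of all gene names passed the same test in one or the other direction, these calls are not particular to transport genes.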

How the results depend on the processing

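With limma in place of Rank Products, 9 genes were called in H460C and 6 in H460R (77.2% and 77.9% of all gene names), and 8 and 6 when either sample of the population was left out (54.1% to 54.4% and 72.5% to 73.8% of all gene names, chosen after seeing the data). There the lone sample is assumed to vary like the samples of the other population. Between H460C and H460R, 8 genes were called with the replicate block, with H460C as 1 sample and in the other alternatives, except 9 with the studied cells in Cy3 only. Leaving out each sample gave 8 to 9, SLC31A2 being the gene gained without H460R replicate 2. Over all gene names that comparison called 13409, and 8359 with H460C as 1 sample, 8414 without H460C replicate 1 and 8384 without H460C replicate 2.

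Against H460, the H460C mean turned to 0.30 for ABCC1 in Cy3 only and to 0.03 for ABCC2 in Cy5 only. That of SLC31A1 was 0.86 in Cy3 only and 0 in Cy5 only. In H460R, ATP7B turned to 5.4e-05 with normexp and loess, 0.00055 with the software's log ratio, 0.00043 without background subtraction and 0.195 in Cy5 only. LRRC8A in H460R turned to 0.026 with normexp, 0.0282 without background subtraction and 0.275 in Cy5 only, and SLC31A1 to -0.385 in Cy5 only and -0.0863 as the mean over its probes. SLC31A2 turned to -0.075 between the populations in Cy5 only. The cause was not tested.

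Efflux minus uptake was, in H460C and H460R, -1.08 and 0.194 without SLC31A2, -0.867 and 0.158 as the mean over probes, -1.08 and 0.139 with the software's log ratio, -1.10 and 0.066 in Cy3 only, -0.914 and 0.170 in Cy5 only, -0.909 and 0.0515 without LRRC8A, and -0.803 and 0.224 without ABCC3 (the last 4 alternatives were chosen after seeing the data). Leaving out each sample gave -1.02 to -0.999 and 0.108 to 0.128. The negative sign in H460C and the positive one in H460R were kept in all of these. Rank Products with 1 ratio left gives no test. Without the dim-probe filter, 326 and 276 gene names were called by Rank Products in H460C and H460R, against 229 and 197.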
